A study of Mus musculus with 24 samples.

Results

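The 10 genes described here encode secreted growth factors that macrophages can make, namely Igf1, Pdgfa, Pdgfb, Pdgfc, Hbegf, Areg, Ereg, Tgfb1, Vegfb and Hgf. They were chosen by name from the 41388 genes of the count table, and all 10 were found by their Ensembl identifiers. RNA was sequenced from macrophages sorted in bulk from the dura mater, the tough outer membrane of the brain, and from the diaphragm, the breathing muscle below the lungs. Every sample is labelled as wild type C57BL/6, 17 weeks old and at steady state, although the title of the series names RAG-1 deficient mice given T cells, and no deficient or reconstituted animal appears among the labels. The labels list 24 samples in 3 macrophage subsets per tissue (C1, C2 and C3), and neither the labels nor the protocols say how a subset was gated.

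The columns of the table name the tissue but no subset. The 9 dural columns combine one of the numbers 1, 3 and 4 with one of the marks P4, P5 and P6. What a mark stands for is not stated, and the marks were compared under those names. The 15 diaphragm columns carry numbers, and 6 have an added prefix. These 6 differed from the column of the same number by little more than repeat readings of 1 library would. Chi-square per degree of freedom was 1.008 to 1.169, highest for number 1. It was at least 10.56 for the other 108 pairs within a tissue, dural pairs included. Diaphragm columns of the same number were therefore summed. Diaphragm columns 4 and 5 held only 2115 and 1496 counts and were left out. This left 9 dural libraries of 10457920 to 24077834 counts and 7 diaphragm libraries (numbers 1, 2, 3, 6, 7, 8 and 9) of 11053351 to 30132295 counts. Nothing says that the libraries came from separate animals, so a p-value here reflects library-to-library spread, which may be technical, and dural libraries with the same number need not be independent. Tissue and any batch that goes with it cannot be told apart.

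Macrophages act on their neighbours through these factors. Insulin-like growth factor 1 (Igf1) supports growth and survival of many cells through the receptor Igf1r, and platelet-derived growth factor chains (Pdgfa, Pdgfb, Pdgfc) drive fibroblasts and pericytes through Pdgfra and Pdgfrb. Heparin-binding EGF-like growth factor (Hbegf), amphiregulin (Areg) and epiregulin (Ereg) are made as membrane-anchored precursors and, once shed, activate ErbB receptors, chiefly Egfr. Transforming growth factor beta 1 (Tgfb1) is released in a latent complex and restrains inflammation while promoting matrix, vascular endothelial growth factor B (Vegfb) binds Flt1, and hepatocyte growth factor (Hgf) binds Met.

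The sorted cells carried macrophage RNA throughout. The summed level of 10 macrophage markers was 26797 to 36053 CPM (TMM-scaled counts per 1000000 counts of a library) across the 16 libraries, and Csf1r, the receptor for the macrophage growth factor CSF1, averaged 5209 ± 961 CPM in dura and 3867 ± 790 CPM in diaphragm (SD, n = 9 and 7). RNA of other cells was present too. A list of 10 fibroblast markers summed to 2448 to 4404 CPM in P4, 840.3 to 1010 CPM in P5 and 411 to 559 CPM in P6. In diaphragm the same list summed to 16686 and 8088 CPM in libraries 1 and 7 and to 384 to 906 CPM in the other 5. Ccr2, the chemokine receptor of monocytes newly arrived from blood, was at 33.3 to 104 CPM in P4, 248 to 278 CPM in P5 and 1460 to 1642 CPM in P6, and in diaphragm at 19.7 and 23.7 CPM in libraries 1 and 7, at 129 CPM in both 2 and 8, and at 807 to 1045 CPM in 3, 6 and 9. The 10 classical monocyte markers, Ccr2 among them, did not follow Ccr2 as a set. They summed to 2841 to 3138 CPM in P4 and 2196 to 2419 CPM in P6. Of the 10, 2 were higher and 2 lower in P6 than in P4, where 16% and 17.3% of all genes were. In diaphragm they summed to 3591.5 and 4769 CPM in libraries 1 and 7. The sums were 2147 to 2394 CPM in 2 and 8, and 3566 to 3881 CPM in 3, 6 and 9. In bulk RNA, fewer cells of a type and less RNA per cell cannot be told apart.

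**Figure D1:**
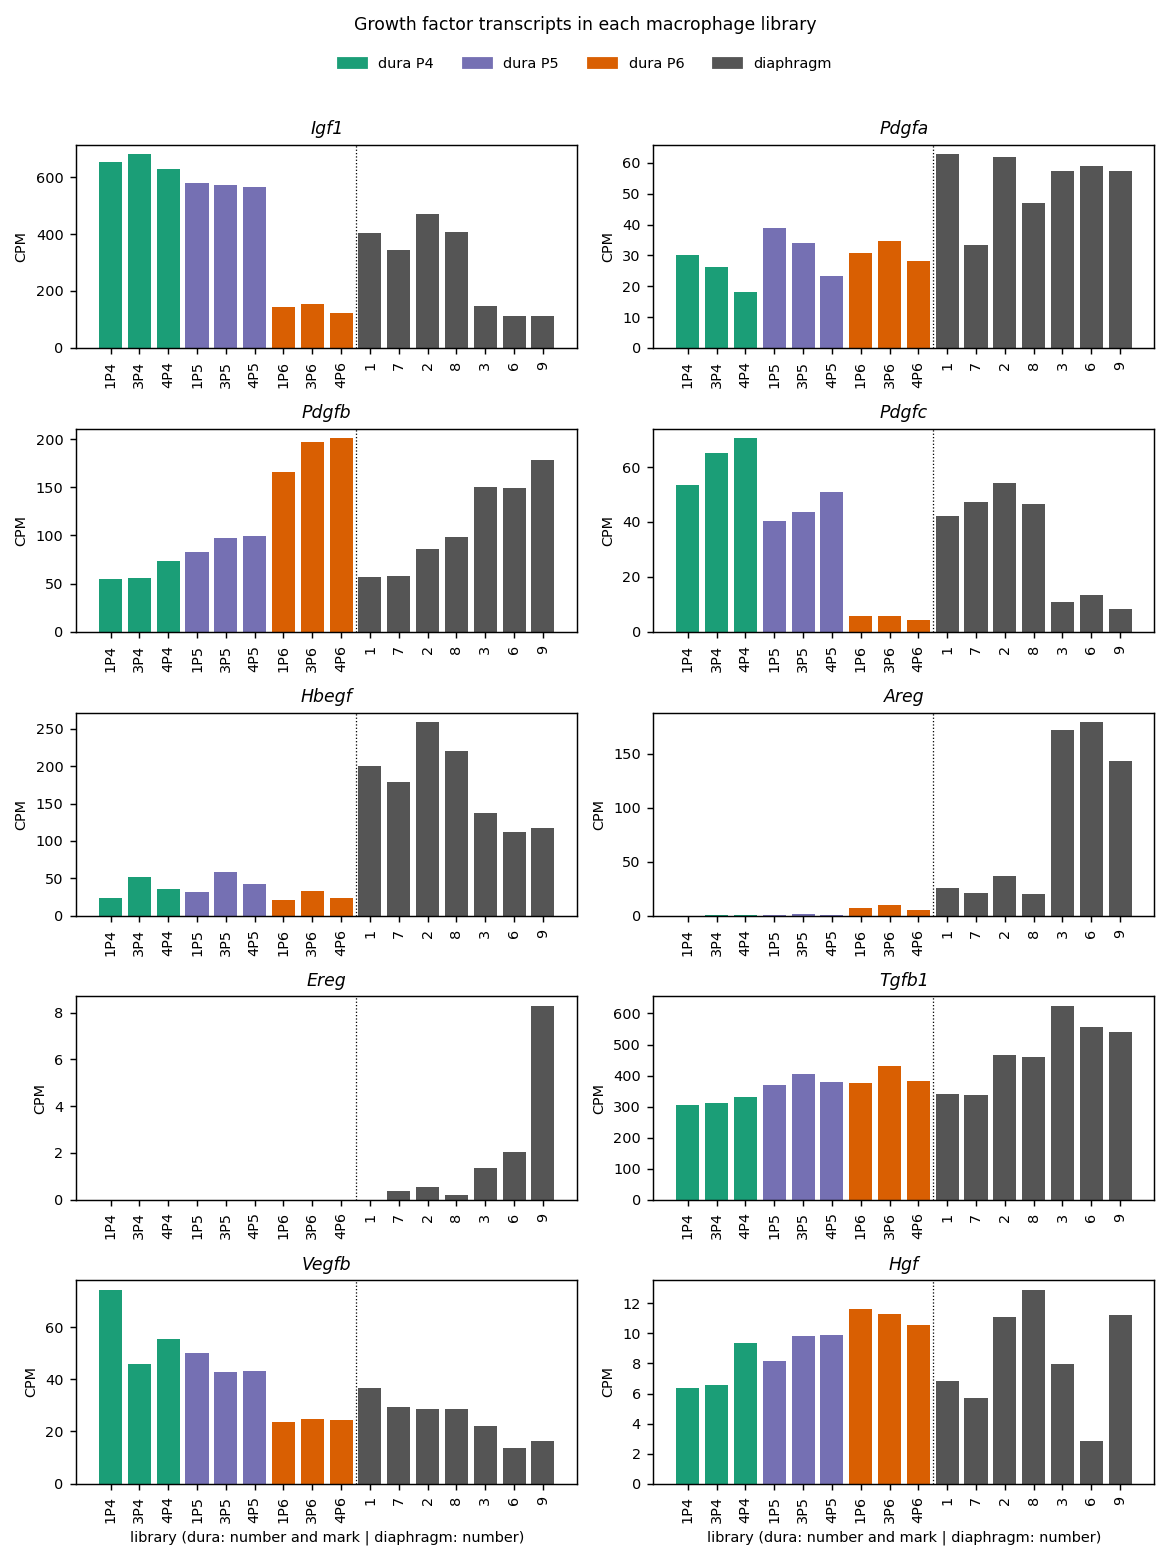
Level of each growth factor gene in CPM (linear axis from 0, its own scale per gene), with 1 bar per library for dura P4, P5 and P6 and, right of the dotted line, diaphragm libraries 1, 7, 2, 8, 3, 6 and 9. Igf1 and Pdgfc are lowest in P6 among the dural marks, Areg is highest there, and every diaphragm bar of Hbegf and Areg is above every dural bar.

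The clearest pattern within the dura was an opposite movement of 2 sets of genes between P4 and P6, with Igf1, Pdgfc and Vegfb lower in P6 and Pdgfb, Areg and Tgfb1 higher. Start-site windows of 4 of these genes are shown because they are the members with a RefSeq window that moved furthest between the marks. RefSeq (GRCm38.p6) gave windows of 250 bases before to 50 bases after a start for 7 of the 10 members. Each window is written 5′ to 3′ on the strand of its gene, and capitals mark matches to any of 6 motifs searched on both strands.

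Igf1, chr10:87860861-87861160, plus strand: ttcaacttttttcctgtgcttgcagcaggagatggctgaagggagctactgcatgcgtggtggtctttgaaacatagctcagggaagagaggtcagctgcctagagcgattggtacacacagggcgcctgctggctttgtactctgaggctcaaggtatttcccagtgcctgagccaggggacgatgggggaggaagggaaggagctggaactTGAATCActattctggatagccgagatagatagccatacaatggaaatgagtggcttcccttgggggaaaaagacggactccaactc

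Pdgfc, chr3:81036166-81036465, plus strand: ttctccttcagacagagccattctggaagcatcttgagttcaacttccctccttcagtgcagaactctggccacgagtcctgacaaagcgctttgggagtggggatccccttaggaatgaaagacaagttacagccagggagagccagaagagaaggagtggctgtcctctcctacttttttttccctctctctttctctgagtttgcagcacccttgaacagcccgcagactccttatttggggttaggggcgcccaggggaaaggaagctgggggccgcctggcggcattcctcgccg

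Vegfb, chr19:6987602-6987901, minus strand: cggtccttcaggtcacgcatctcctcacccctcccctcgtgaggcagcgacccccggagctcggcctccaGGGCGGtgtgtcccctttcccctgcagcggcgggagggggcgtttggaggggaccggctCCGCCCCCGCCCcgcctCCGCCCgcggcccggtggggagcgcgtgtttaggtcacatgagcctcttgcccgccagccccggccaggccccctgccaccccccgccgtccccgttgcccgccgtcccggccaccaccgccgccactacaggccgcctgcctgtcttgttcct

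Areg, chr5:91139349-91139648, plus strand: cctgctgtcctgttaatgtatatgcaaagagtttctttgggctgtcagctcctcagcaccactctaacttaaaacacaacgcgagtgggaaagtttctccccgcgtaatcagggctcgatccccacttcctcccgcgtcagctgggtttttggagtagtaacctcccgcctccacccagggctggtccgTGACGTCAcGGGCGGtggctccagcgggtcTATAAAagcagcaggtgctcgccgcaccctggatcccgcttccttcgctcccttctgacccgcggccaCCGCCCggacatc

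The motifs were the TATA box (TATAAA, in 13.6% of all 32851 windows), the cyclic AMP response element (TGACGTCA, 1.79%), the AP-1 element (TGANTCA, 7.81%), the C/EBP element (TTGCNNAA, 10.8%), the GC box (GGGCGG, 35.7%) and the E-box (CACGTG, 7.15%). A GC box on the opposite strand reads CCGCCC in the lines above. The Areg window held 1 cyclic AMP response element, 1 TATA box and 2 GC boxes, the Igf1 window held 1 AP-1 element, the Vegfb window held 4 GC boxes and the Pdgfc window held none of the 6, and no matches overlapped. The Igf1 window lies inside the annotated gene span, at a start downstream of its first base. A match describes letters only and shows no binding.

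Igf1 was high in P4 and P5 and dropped in P6. Igf1 (ENSMUSG00000020053, chr10:87858265-87937042, plus strand) had 653, 679.5 and 628 CPM in the P4 libraries of numbers 1, 3 and 4, 580.2, 572 and 567 CPM in P5, and 144, 153 and 124 CPM in P6. The 3 P6 libraries all lay far below the other 6. The level in P6 was 4.64-fold below that in P4, a log2 difference of -2.22 ± 0.09 (SE, adjusted p = 7.91e-09, edgeR quasi-likelihood test with Benjamini-Hochberg adjustment over 13239 genes), and it differed from P5 by -2.03 ± 0.09 (adjusted p = 4.25e-08, same test). The libraries of P5 and P4 did not overlap, yet P5 minus P4, at -0.19 ± 0.09, missed the threshold of 0.05 (edgeR adjusted p = 0.263), and passed it with library totals in place of TMM factors, at -0.31 (adjusted p = 0.0404).

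Pdgfc fell further than any other member in the dura. Its product is secreted with a CUB domain that must be cut off before it can bind Pdgfra. Pdgfc (ENSMUSG00000028019, chr3:81036416-81214040, plus strand) had 53.5, 65.2 and 70.4 CPM in P4, 40.3, 43.7 and 50.9 CPM in P5, and 5.96, 5.93 and 4.44 CPM in P6. Every P6 value was under 6 CPM and the ranges of the 3 marks were separate. The P6 level was 11.6-fold below P4, or -3.53 ± 0.17 on the log2 scale (edgeR adjusted p = 3.64e-08), and differed from P5 by -3.05 ± 0.17 (edgeR adjusted p = 2.92e-07). For P5 minus P4 the difference was -0.48 ± 0.15 (edgeR adjusted p = 0.0741), and it passed the threshold with DESeq2, limma-voom, library totals or no filter on low counts (adjusted p = 0.0241 to 0.0402).

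Pdgfb moved the opposite way. Its product forms the PDGF-BB dimer, which binds Pdgfrb on pericytes. Pdgfb (ENSMUSG00000000489, chr15:79995874-80014977, minus strand) had 55.2, 55.9 and 73.9 CPM in P4, 82.3, 97.8 and 99.6 CPM in P5, and 166, 197 and 201 CPM in P6. The libraries of the 3 marks formed 3 separate steps, each above the one before. P6 was 3.06-fold above P4 (1.61 ± 0.14 on the log2 scale, edgeR adjusted p = 3.39e-06), and above P5 by 1.01 ± 0.14 (edgeR adjusted p = 0.000291). Pdgfb was the only member called between P5 and P4, at 0.60 ± 0.14 (edgeR adjusted p = 0.0190), and this call was lost without 1P4, 3P4, 3P5 or 4P5 (adjusted p = 0.0660 to 0.0926) and with library totals in place of TMM factors (adjusted p = 0.0506).

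Pdgfa, whose product pairs with itself or with the Pdgfb chain and binds Pdgfra, showed no called difference between the marks. Pdgfa (ENSMUSG00000025856, chr5:138976014-138997370, minus strand) had 30.2, 26.2 and 18.2 CPM in P4, 38.9, 33.9 and 23.5 CPM in P5, and 30.7, 34.7 and 28.1 CPM in P6. The 3 ranges overlapped, and P6 minus P4 was 0.34 ± 0.21 (edgeR adjusted p = 0.256). The kit does not keep the strand, and 813 of the 3119 exon bases of Pdgfa are shared with a gene model on the opposite strand, as are 147 of the 5089 of Pdgfc, so reads there cannot be assigned to 1 strand.

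Vegfb, a ligand of Flt1 linked in mice to cardiac and metabolic tissue more than to vessel sprouting, fell with Igf1 and Pdgfc. Vegfb (ENSMUSG00000024962, chr19:6982473-6987651, minus strand) had 74.3, 45.9 and 55.4 CPM in P4, 50.3, 42.9 and 43.1 CPM in P5, and 23.7, 24.9 and 24.3 CPM in P6. The P6 libraries lay below all others and close together, while P4 and P5 overlapped. P6 minus P4 was -1.26 ± 0.16 (edgeR adjusted p = 9.27e-05) and P6 minus P5 was -0.90 ± 0.16 (edgeR adjusted p = 0.00243).

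Areg was at the edge of detection in P4 and clearly present in P6. Amphiregulin is best known as a repair factor from innate lymphoid cells and regulatory T cells, and macrophages can make it too. Areg (ENSMUSG00000029378, chr5:91139599-91148432, plus strand) had 0, 0.941 and 0.444 CPM in P4, 0.678, 1.90 and 1.14 CPM in P5, and 7.55, 9.75 and 5.72 CPM in P6. All 3 P6 libraries exceeded all 6 others, while P4 and P5 overlapped. The fitted P6 minus P4 difference was 3.97 ± 0.75 (edgeR adjusted p = 0.00156), and its size rests on a P4 group with almost no reads. P6 minus P5 was 2.62 ± 0.69 (edgeR adjusted p = 0.0214), a call lost without 1P5, 3P6 or 4P5 (adjusted p = 0.0744 to 0.0832). The list of 10 T cell and innate lymphoid markers summed to 61.4 to 69.9 CPM in P6, against 50.8 to 58.3 CPM in P4. Il1rl1, Rora and Il7r made up most of it, averaging 39.2, 16.3 and 5.67 CPM in P6, against 23.5, 23.4 and 0.827 in P4. Cd3e, Cd3d, Cd3g, Trbc2 and Lck averaged at most 0.844 CPM in either mark. Of the 5 markers tested, 2 were higher and 1 lower in P6 than in P4, where 16% and 17.3% of all genes were. The 10 mast cell markers summed to 4.37 to 7.13 CPM in P6, against 43.4 to 178 CPM in P4. The part of these cells in the Areg level was not tested.

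Tgfb1 was high in every library, and its differences were small. Tgfb1 (ENSMUSG00000002603, chr7:25687002-25705077, plus strand) had 304, 310.15 and 332 CPM in P4, 369, 406 and 378 CPM in P5, and 376, 431 and 383 CPM in P6. All P6 and P5 libraries were above all P4 libraries, and P5 and P6 overlapped. P6 minus P4 was 0.34 ± 0.09 (edgeR adjusted p = 0.00889), which with library totals alone was 0.21 (adjusted p = 0.0724). P5 minus P4 was 0.29 ± 0.09 (edgeR adjusted p = 0.0629), and it passed with DESeq2, limma-voom and limma on log2(CPM + 1).

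Hbegf and Hgf did not pass the threshold between the dural marks in edgeR's test by mark alone. With the dural number added to the fit as a replicate block, Hbegf passed in P6 minus P5 and P6 minus P4. Hgf then passed in P6 minus P4. Hbegf (ENSMUSG00000024486, chromosome 18) had 24.0, 51.4 and 36.4 CPM in P4, 31.5, 58.4 and 42.0 CPM in P5, and 20.8, 33.0 and 24.15 CPM in P6. In every mark number 1 was lowest and number 3 highest, and P6 minus P5 was -0.75 ± 0.28 (edgeR adjusted p = 0.0942). That difference passed with DESeq2 (adjusted p = 0.0357) and with no filter on low counts (edgeR adjusted p = 1.60e-05). P6 minus P4, at -0.52 ± 0.28 (edgeR adjusted p = 0.189), passed with no filter (adjusted p = 0.00565). Hgf (ENSMUSG00000028864, chr5:16553495-16620152, plus strand), a ligand for epithelial and endothelial Met, had 6.34, 6.59 and 9.37 CPM in P4, 8.13, 9.83 and 9.91 CPM in P5, and 11.7, 11.3 and 10.6 CPM in P6. P6 lay above P4 in all 3 libraries, and the difference of 0.59 ± 0.22 missed the threshold (edgeR adjusted p = 0.0557). Without 4P4 it was 0.80 (adjusted p = 0.0220). A gene model on the same strand shares 484 of the 7186 exon bases of Hgf. Ereg (ENSMUSG00000029377, chr5:91074622-91093646, plus strand) had no count in any of the 9 dural libraries, which allows up to 0.0233 CPM over the tissue at a floor of 3 counts. The floor covers counting error only.

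The 3 pairs of marks share libraries, so their values are given side by side and are not independent. Between P6 and P4, 6 of the 9 members tested were called, 3 higher and 3 lower, where 33.3% of all 13239 genes tested were called, 16% higher and 17.3% lower. The member ranges did not overlap for 7 of 9, where 46.6% of all genes had ranges that did not overlap. Between P6 and P5, 2 members were higher and 3 lower, where 17.4% of all genes were called, 8.38% higher and 8.98% lower, and the ranges did not overlap for 6 of 9 members and 36% of all genes. Between P5 and P4, 1 member was higher and none lower, where 7.35% of all genes were called, 3.09% higher and 4.26% lower, and the ranges did not overlap for 4 of 9 members and 25.9% of all genes. These 4 were Igf1, Pdgfb, Pdgfc and Tgfb1. The median size of the log2 difference over the 9 members was 1.26 for P6 minus P4, against 0.40 over all genes, and 0.90 for P6 minus P5, against 0.29. The 10th member, Ereg, had too few counts to be tested in any comparison.

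All 10 fibroblast markers were called lower in P6 than in P4 (17.3% of all genes), as Igf1, Pdgfc and Vegfb were, and none was at 0 in any mark. The steps differed in size. From P4 to P5, 9 of 10 fibroblast markers were called lower (4.26% of all genes), with a median log2 difference of -2.18. Igf1, Pdgfc and Vegfb were at -0.19, -0.48 and -0.36, none called in edgeR's test by mark alone. From P5 to P6, 5 of 10 markers were called lower (8.98% of all genes), with a median of -1.02. Igf1, Pdgfc and Vegfb were at -2.03, -3.05 and -0.90. Among the P6 libraries the summed fibroblast level was still 411 to 559 CPM. Ccr2, like Pdgfb and Areg, was highest in P6. Of the 9 dendritic cell markers tested, 5 were higher and 3 lower in P6 than in P4, where 16% and 17.3% of all genes were. They summed to 172 to 201 CPM in P6, against 196 to 203 CPM in P4. The part of these cells in the levels of the growth factors was not tested.

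**Figure D2:**
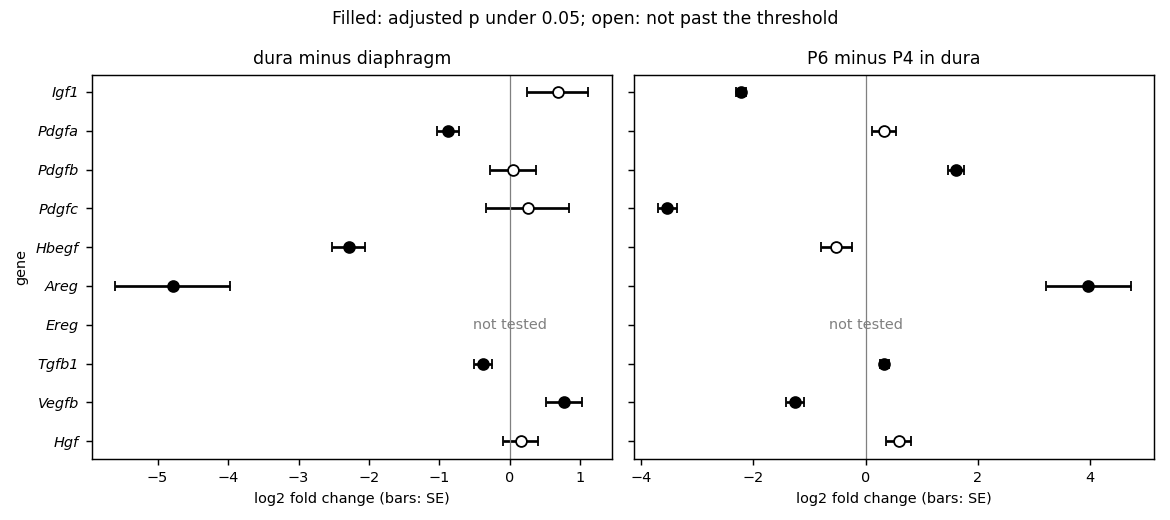
Log2 differences with their standard errors for dura minus diaphragm (left) and P6 minus P4 within dura (right), with filled points past an adjusted p of 0.05 in edgeR's quasi-likelihood test and Ereg not tested. Hbegf and Areg lie at -2.29 and -4.79 for dura minus diaphragm, and Igf1 and Pdgfc at -2.22 and -3.53 for P6 minus P4.

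Between the tissues, Hbegf, Areg, Pdgfa and Tgfb1 were lower in dura than in diaphragm, Vegfb was higher, and Igf1, Pdgfb, Pdgfc and Hgf did not pass the test. Of the 9 members tested 1 was higher and 4 were lower, where 26.4% of all 13136 genes tested were called, 11.2% higher and 15.3% lower. For 2 of the 9, Hbegf and Areg, the ranges of the tissues did not overlap, as was so for 6.9% of all genes. The median size of the log2 difference was 0.68 over the members and 0.35 over all genes.

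Hbegf was at 20.8 CPM at the lowest, 33.0 CPM at the median and 58.4 CPM at the highest of the 9 dural libraries, against 112, 179 and 259 CPM in the 7 diaphragm libraries. The lowest diaphragm library held more than the highest dural one. The dural level was 4.89-fold lower, with a log2 difference of -2.29 ± 0.23 (edgeR adjusted p = 2.79e-06), and the difference kept its call in every alternative run (-2.55 to -2.06). Within the diaphragm, Hbegf had 200.2 and 179 CPM in libraries 1 and 7, 259 and 220.3 CPM in 2 and 8, and 137, 112 and 118 CPM in 3, 6 and 9. Each of these values was above every dural library.

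Areg was at 0, 1.14 and 9.75 CPM at the lowest, median and highest dural library, against 19.9, 37.0 and 179 CPM in diaphragm. The difference was -4.79 ± 0.82 on the log2 scale (edgeR adjusted p = 0.000418), or 27.6-fold lower in dura, and all 7 diaphragm libraries exceeded all 9 dural ones. It was -5.36 and lost its call where the dural number entered as a random term (adjusted p = 0.0617), and it ranged from -6.60 to -3.02 over all alternatives. The diaphragm itself was split, with 25.4 and 21.1 CPM in libraries 1 and 7, 37.0 and 19.9 CPM in 2 and 8, and 172, 179 and 144 CPM in 3, 6 and 9. Libraries 3, 6 and 9 were also the ones high in Ccr2, and they held 714 to 945 CPM of the 10 dendritic cell markers, against 169 to 209 CPM in the other 4. Ccr7, which marks dendritic cells on their way to lymph nodes, was at 243, 289 and 209 CPM in libraries 3, 6 and 9, against 0 to 43.1 CPM in the other 4. The T cell and innate lymphoid markers summed to 93.4 to 124 CPM in libraries 3, 6 and 9, against 48.4 to 63.9 CPM in the other 4. Most of this list was again Il1rl1, Rora and Il7r, averaging 32.6, 25.9 and 12.3 CPM in diaphragm. Cd3e, Cd3d, Cd3g, Trbc2 and Lck averaged 0.387 to 1.06 CPM there. The part of these cells in the Areg level was not tested.

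Ereg, which lies 45952 bases upstream of Areg on the same chromosome, had 263 counts over the diaphragm libraries and none over the dural ones. It was at least 70.9-fold lower in dura, with the dura set at its floor of 3 counts over the tissue, but at least 26.1-fold lower without diaphragm library 9, which left 82 counts, a setting added after the data were seen. It was too rare to be tested. Among diaphragm libraries it had 0 and 0.369 CPM in 1 and 7, 0.557 and 0.183 CPM in 2 and 8, and 1.35, 2.04 and 8.27 CPM in 3, 6 and 9. Library 9 alone held most of the summed CPM. An opposite-strand gene model shares 141 of the 4128 exon bases of Ereg.

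**Figure D3:**
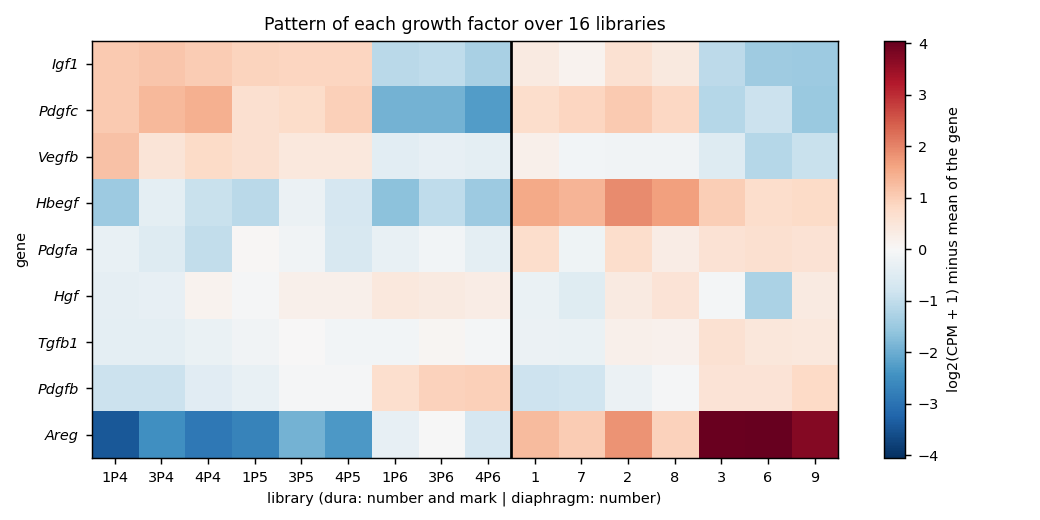
Level of the 9 tested members in each of the 16 libraries relative to the mean of the gene over all libraries, as a colour scale of log2(CPM + 1) differences, with the dural libraries left of the line and diaphragm libraries 1, 7, 2, 8, 3, 6 and 9 right of it. Igf1 and Pdgfc are low in P6 and in diaphragm libraries 3, 6 and 9, where Pdgfb is high, and Areg is highest in diaphragm libraries 3, 6 and 9 and lowest in P4 and P5.

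Pdgfa was lower in dura, with a log2 difference of -0.88 ± 0.15 (edgeR adjusted p = 0.00048). It had 18.2, 30.2 and 38.9 CPM at the lowest, median and highest dural library, against 33.4, 57.4 and 62.8 CPM in diaphragm, and 6 of the 7 diaphragm libraries lay above all dural ones. Library 7, at 33.4 CPM, was the exception.

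Tgfb1 and Vegfb differed by less, and their calls depended on single libraries. Tgfb1 had 304, 376 and 431 CPM at the lowest, median and highest dural library, against 337, 468 and 624 CPM in diaphragm, with 5 of 7 diaphragm libraries above all dural ones. Its difference of -0.38 ± 0.13 (edgeR adjusted p = 0.0378) lost its call in 10 of 16 fits without 1 library, namely 1P4, 1P5, 3P4, 4P4, 4P5, 4P6 and diaphragm 2, 3, 6 or 9 (adjusted p = 0.0534 to 0.126), and in 10 of 17 other settings (adjusted p = 0.0538 to 0.630). Vegfb had 23.7, 43.1 and 74.3 CPM in dura, against 13.6, 28.7 and 36.7 CPM in diaphragm, and 3 of 7 diaphragm libraries lay below all dural ones. Its difference of 0.77 ± 0.26 (edgeR adjusted p = 0.0371) lost its call in 9 of 16 fits without 1 library, namely 1P4, 1P5, 3P4, 3P5, 4P4, 4P5 and diaphragm 3, 6 or 9 (adjusted p = 0.0541 to 0.0747), and in 7 of 17 other settings (adjusted p = 0.0513 to 0.232).

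The members that split the dural marks most split the diaphragm too, and their tissue means therefore hide most of the variation. Igf1 averaged 456 ± 240 CPM in dura and 285 ± 156 CPM in diaphragm (SD, n = 9 and 7), a log2 difference of 0.68 ± 0.44 (edgeR adjusted p = 0.274). In diaphragm it had 402 and 343 CPM in libraries 1 and 7, 472 and 408 CPM in 2 and 8, and 147, 113 and 111 CPM in 3, 6 and 9. The last 3 lie in the range of dural P6 or just below it. Without the P6 libraries dura was higher by 1.13 (edgeR adjusted p = 0.0197). That setting left out the libraries low in Igf1 from the dura only, and kept diaphragm libraries 3, 6 and 9. It was the only 1 of 33 alternatives that gained a call, and the difference over them ranged from 0.20 to 1.13. The part of fibroblast RNA in the Igf1 level was not tested.

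**Figure D4:**
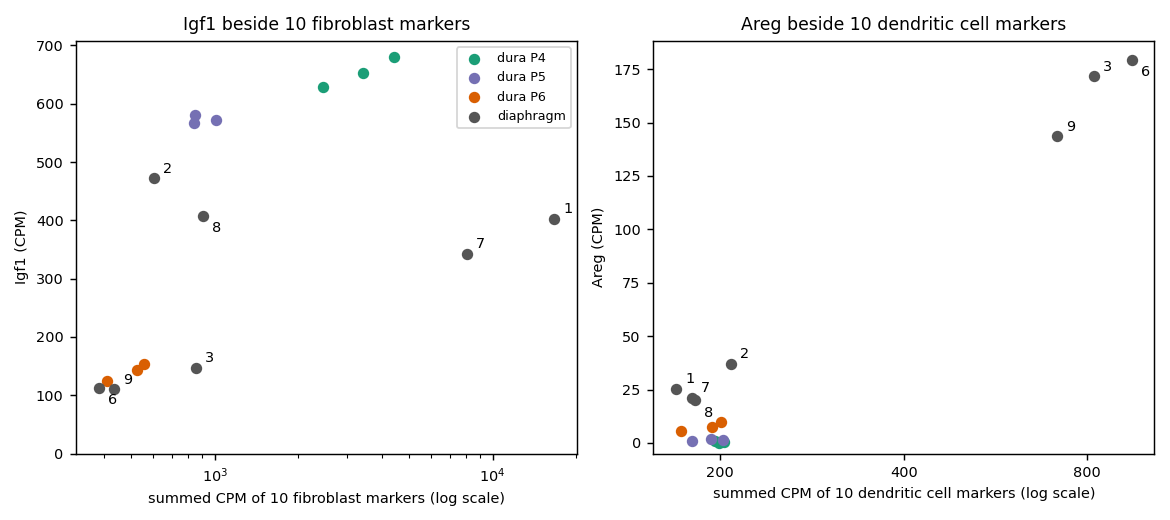
Each library's Igf1 level against the summed CPM of 10 fibroblast markers (left) and its Areg level against the summed CPM of 10 dendritic cell markers (right), with log horizontal and linear vertical axes in CPM, 1 point per library and diaphragm numbers written beside the points. Igf1 is at 567 to 580.2 CPM in P5, with fibroblast sums of 840.3 to 1010 CPM, and at 402 and 343 CPM in diaphragm libraries 1 and 7, with fibroblast sums of 16686 and 8088 CPM, and the 3 points high in Areg are diaphragm libraries 3, 6 and 9.

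Pdgfc had 42.1 and 47.3 CPM in diaphragm libraries 1 and 7, 54.1 and 46.5 CPM in 2 and 8, and 10.8, 13.4 and 8.23 CPM in 3, 6 and 9. All 7 lay within the dural range, and the tissue difference of 0.25 ± 0.59 missed the threshold (edgeR adjusted p = 0.794). Pdgfb had 56.8 and 58.4 CPM in libraries 1 and 7, 85.5 and 98.6 CPM in 2 and 8, and 150.3, 149 and 178 CPM in 3, 6 and 9, which is the order seen from P4 to P6. Its tissue difference was 0.04 ± 0.32 (edgeR adjusted p = 0.944), and its sign turned without 1P6, 3P6, 4P6 or diaphragm 1, 2 or 7, with a range of -0.095 to 0.20 over the fits without 1 library.

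Tgfb1, Vegfb and Hgf differed among the diaphragm libraries as well. Tgfb1 had 339 and 337 CPM in libraries 1 and 7, 468 and 459.8 CPM in 2 and 8, and 624, 557 and 541 CPM in 3, 6 and 9. Vegfb had 36.7 and 29.5 CPM in 1 and 7, 28.8 and 28.7 CPM in 2 and 8, and 21.9, 13.6 and 16.5 CPM in 3, 6 and 9. Hgf, with 6.83 and 5.69 CPM in 1 and 7, 11.1 and 12.9 CPM in 2 and 8, and 7.97, 2.85 and 11.2 CPM in 3, 6 and 9, followed no such order, and its tissue difference was 0.15 ± 0.25 (edgeR adjusted p = 0.701). The labels tie no diaphragm number to a subset, so these sets of libraries are described and were not compared by a test.

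Levels of different genes were set side by side per kilobase of merged exons. In P4, Igf1 at 66.0 ± 2.58 and Tgfb1 at 62.5 ± 2.86 CPM per kilobase (SD, n = 3) led with overlapping ranges (63.5 to 68.6 and 60.3 to 65.8), and Vegfb followed at 36.5 ± 9.01. In P5 the order was Tgfb1 at 76.3, Igf1 at 57.9, Vegfb at 28.3 and Pdgfb at 22.4 CPM per kilobase, ahead of Pdgfa, Hbegf, Pdgfc, Hgf and Areg. In P6, Tgfb1 led at 78.7 ± 5.95, Pdgfb came next at 45.1 ± 4.59, and Igf1 was down to 14.1 CPM per kilobase, close to Vegfb at 15.1. In diaphragm, Tgfb1 was at 94.2 ± 21.6, Areg at 70.3 ± 62.0, Hbegf at 36.2 ± 11.5, Igf1 at 28.8 ± 15.8 and Pdgfb at 26.7 ± 11.6 CPM per kilobase (SD, n = 7), so that neighbours in this order overlapped within their spread. The place of Areg rests on libraries 3, 6 and 9, at 141, 148 and 118 CPM per kilobase, while the other 4 held 16.4 to 30.5 CPM per kilobase of Areg, below Hbegf at 36.9 to 53.5 and Igf1 at 34.6 to 47.6 in the same libraries. Among members with counts, the lowest were Hgf at 1.03 and Areg at 0.38 CPM per kilobase in P4, Hgf at 1.29 and Areg at 1.02 in P5, and Hgf at 1.56 and Pdgfc at 1.07 in P6, where Areg was at 6.31. In diaphragm the lowest were Hgf at 1.16 and Ereg at 0.442.

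Receptors, binding proteins and activating enzymes of each factor were taken from 6 lists. The IGF list had 4 of 15 tested genes higher and 3 lower in dura, and in P6 10 of 14 were lower than in P4 and none higher. Igfbp5, a binding protein that holds IGFs in the matrix, averaged 824 ± 779 CPM in dura and 70.4 ± 88.9 CPM in diaphragm (log2 difference 3.55, edgeR adjusted p = 0.00642), and within dura it was lower in P6 than in P4 by -3.38 on the log2 scale. Igf2, the other IGF ligand made mainly by mesenchymal cells, averaged 439 ± 350 CPM in dura and 34.5 ± 41.6 CPM in diaphragm (3.67, edgeR adjusted p = 0.00334), and Pappa2, a protease that cuts Igfbp5, 6.29 ± 9.36 CPM in dura and 0.00653 CPM in diaphragm. Igfbp3 and Igfbp6, further binding proteins, were lower in dura, at -3.16 and -2.20, as was Igf2r, the receptor that clears IGF2, at -1.32 (edgeR adjusted p = 0.0124, 0.0454 and 0.0271). Igf2, Igfbp5, Igfbp3, Igfbp6 and Pappa2 were all lower in P6 than in P4, as the fibroblast markers were, and the part of fibroblast RNA in their levels was not tested.

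In the PDGF list, 1 of 8 genes was higher and 1 lower in dura, and 7 of 8 were lower in P6 than in P4. Nrp1, a co-receptor for several growth factors, averaged 661 ± 179.7 CPM in dura and 409.7 ± 132 CPM in diaphragm (0.69, edgeR adjusted p = 0.0233). Furin, a protease that cuts the precursors of the Pdgfa and Pdgfb chains and of TGF-beta 1, averaged 119 ± 15.6 CPM in dura and 361 ± 184 CPM in diaphragm (-1.60, edgeR adjusted p = 0.000106). The list includes Pdgfra and Pdgfrb, which also stand in the fibroblast and pericyte lists.

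In the EGF list, 1 of 12 tested genes was higher and 2 were lower in dura, and 2 were higher and 5 lower in P6 than in P4. Rhbdf2, which carries the shedding protease ADAM17 to the cell surface, averaged 34.6 ± 7.49 CPM in dura and 111 ± 12.9 CPM in diaphragm (-1.69, edgeR adjusted p = 1.82e-07), with separate ranges of 22.4 to 41.9 and 94.5 to 130.35 CPM. Errfi1, a feedback inhibitor that EGFR signalling induces, averaged 207 ± 73.3 CPM in dura and 655 ± 238 CPM in diaphragm (-1.66, edgeR adjusted p = 6.64e-05). Both were thus lower in dura, as were the ligands Hbegf and Areg. Nrg2, a ligand of ErbB3 and ErbB4, was higher in dura at 6.56 ± 2.65 CPM, against 2.87 ± 1.01 CPM in diaphragm (1.19, edgeR adjusted p = 0.007).

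In the TGF-beta list, 1 of 23 tested genes was higher and 9 were lower in dura, and 6 were higher and 7 lower in P6 than in P4. Tgfbr2, the receptor chain that binds TGF-beta first, averaged 810.3 ± 164 CPM in dura and 491 ± 117 CPM in diaphragm (0.72, edgeR adjusted p = 0.00334). Ltbp1 and Ltbp4, which tether latent TGF-beta to the matrix, were lower in dura at -3.37 and -3.24, and Lrrc32 (GARP), which holds it on cell surfaces, at -2.17 (edgeR adjusted p = 0.0124, 0.00375 and 0.000714). Ltbp4 reached 1011 CPM in diaphragm at the highest and 28.8 CPM at the lowest, and Ltbp1 97.7 and 0.407 CPM. The part of fibroblast RNA in the levels of Ltbp1 and Ltbp4 was not tested.

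In the VEGF list, 4 of 8 tested genes were lower in dura and Nrp1 was higher, and 1 was lower in P6 than in P4. The receptors Flt1, Kdr and Flt4 were lower in dura at -2.07, -2.60 and -3.83 (edgeR adjusted p = 0.0105, 0.0119 and 0.00635). The list of 10 endothelial markers, which includes Kdr, summed to 20.9 to 194 CPM in dura, against 1292 and 1306 CPM in diaphragm libraries 1 and 7, 481 and 536 CPM in 2 and 8, and 29.9 to 161 CPM in 3, 6 and 9, with 4 of 10 lower in dura, none higher and none at 0. The part of endothelial RNA in these receptor levels was not tested. In the HGF list, 2 of 6 tested genes were lower in dura and none higher, namely Spint2, an inhibitor of the proteases that activate HGF, at -1.81, and Plau, the urokinase protease, at -0.51 (edgeR adjusted p = 0.0160 and 0.00487). Of all genes, 11.2% were called higher and 15.3% lower in dura than in diaphragm. In P6 against P4, 16% were called higher and 17.3% lower. A list near the shares of its own comparison is not set apart.

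Diaphragm libraries also carried RNA of the tissue itself, and of liver genes. Alb, the albumin gene of liver, averaged 368 ± 146 CPM in diaphragm (182 to 536 CPM), against 0.0383 CPM in dura. Of the 9 liver markers tested, 7 were lower in dura and 1 was higher, where 15.3% and 11.2% of all genes were. The list of 10 was not high in diaphragm alone. It summed to 304 to 837 CPM in diaphragm, but to 3086 CPM in dural library 1P6 and 665 CPM in 4P4. Ttr, which is in this list, reached 2995 CPM in P6 and averaged 14.2 CPM in diaphragm. The 10 skeletal muscle markers summed to 4.08 to 16.3 CPM in dura, with Mb, the oxygen store of muscle, at 0, against 139 to 330 CPM in diaphragm, and 7 of the 8 tested were lower in dura. The 10 skull and meningeal markers summed to 25.9 to 245 CPM in dura, against 0.509 to 7.05 CPM in diaphragm, where 7 of the 10 (Bglap, Bglap2, Ibsp, Sp7, Dmp1, Slc22a6 and Ptgds) had no count. Their part in the tissue differences was not tested.

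The genes whose levels ran most like those of a member were ranked by Pearson's r of log2(CPM + 1) over the 16 libraries, among tested genes averaging 20 CPM or more. The 16 points share tissue, mark and dural number, so r describes the libraries and carries no test. Among the nearest to Igf1 were Cd209f (r = 0.985) and Cd209g (0.979), and for Pdgfc the nearest were Chp2 (0.971), Gprc5c (0.970) and Glul (0.969). For Pdgfb they were Havcr2 (0.976), Twf2 (0.960) and Was (0.954), for Areg Flrt3 (0.995), Itga5 (0.991) and Dusp16 (0.986), and for Hbegf Rgl1 (0.977), Hmox1 (0.968) and Rcan1 (0.957). For Tgfb1 they were Snx20 (0.976), Nfkbie (0.967) and Rnf19b (0.963), for Vegfb Cd63 (0.965), Snx6 (0.961) and Spg20 (0.956), and for Pdgfa Prr13 (0.928), Cdk2ap2 (0.914) and Peli1 (0.914). Hgf and Ereg averaged under 20 CPM and were not ranked. Among the members, r was 0.935 between Igf1 and Pdgfc, 0.895 between Igf1 and Vegfb, -0.909 between Pdgfc and Pdgfb and -0.858 between Igf1 and Pdgfb.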

How the data were processed

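The authors deposited whole-number counts per gene for 24 columns, called normalised but read as raw counts because the values are whole and the column totals differ widely. Per the submitters' processing notes, the tools were DESeq2 1.20.0, featureCounts and STAR 2.4.0j on build GRCm38, with no role given. The kit was unstranded with single-end reads, per the labels' protocols. Symbols were matched for 40254 genes, and coordinates came from GENCODE annotation of the same build.

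Tissues were compared with edgeR's quasi-likelihood test (edgeR 4.0.16, limma 3.58.1, R 4.3.3) on 13136 genes kept by filterByExpr, and the dural marks in 1 fit over 9 libraries on 13239 genes, with TMM factors, two-sided tests and Benjamini-Hochberg adjustment at 0.05. The script was tested on simulated data. The members, the lists and the tests were chosen with earlier results of these data known. Named genes were all 10 members, at most 3 genes per direction of each pathway list called between tissues with at least 5 CPM in the higher tissue, and the 3 genes most like each member, of which 1 is not reported here. Same-numbered dural libraries were not treated as pairs in the main fit, since only 4 of 9 correlations of their deviations were over 0.1. This count is not a test of pairing. These 9 correlations were all positive, from 0.0077 to 0.125, against -0.139 to 0.0626 for the 18 pairs of different number and mark. Libraries of 1 number may thus depend on each other, and the calls that changed with the number in the fit are given at the end. Alternatives included other scalings and filters, DESeq2 1.42.0, limma, and left-out libraries. The comparison of labelled subsets was not run, because no column names its subset.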

Additional observations from a re-analysis of the deposited data

Results flagged for a closer look

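Ereg in diaphragm library 9 stood apart from the other diaphragm libraries at 8.27 CPM, against 0 to 2.04 CPM in the other 6 and no count in any dural library. Its gap to the next library was 0.754 of the range of the group. The rule would flag about 1 in 20 groups if values were normally spread. Low counts from unlike libraries need not be, so that rate does not measure how unusual this value is. It was the 1 value flagged among 19 groups of a member in a tissue. No cause was tested.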

How the results depend on the processing

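Of 783 recomputed member values, 699 kept direction and side of the threshold, 46 lost a call, 21 gained one and 17 changed sign. Changed signs were for dura minus diaphragm Pdgfb, at -0.22 without diaphragm libraries 1 and 7, -0.052 without 2 and 8, -0.50 without P6 and -0.095 to 0.20 leaving out 1 library each, and Pdgfc, at -0.30 without diaphragm libraries 3, 6 and 9 and -0.33 without P4. Between marks, leaving out 1 library gave -0.0060 to 0.54 for Hbegf in P5 minus P4, -0.22 to 0.12 for Pdgfa in P6 minus P5 (limma-voom 0.046) and -0.024 to 0.093 for Tgfb1 in P6 minus P5. None of the values with a changed sign passed the threshold, and the cause was not tested.

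Genes called between tissues numbered 3472, 1259 with dural libraries summed per number, 2143 without P5 and 2969 to 3585 leaving out 1 library. For P5 minus P4 973 were called, 1587 with no filter, 1576 with the dural number as a replicate block and 544 to 1136 leaving out 1 library (557, 544 and 607 without 3P4, 3P5 and 4P5). For P6 minus P5 2299 were called and 1480 to 2503 leaving out 1 library (1480 without 3P5), and for P6 minus P4 4403 and 3717 to 4531. Calls higher in dura made up 42.2%, but 61% with library totals and 54.3% with upper-quartile factors, and in P5 minus P4 42%, but 22.2% with totals, and in P6 minus P4 48.1%, but 34.8%. Library totals moved the median of all genes by 0.124, -0.134 and -0.135 in those 3 comparisons.

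The replicate block called Pdgfc (adjusted p = 0.0399) and Tgfb1 (0.0153) in P5 minus P4, Hbegf in P6 minus P5 (0.000773) and P6 minus P4 (0.00624), and Hgf in P6 minus P4 (0.0477), all by edgeR. Same-numbered libraries shared a number with correlations of 0.0077 to 0.125, and 6 of 9 correlated best with their own number, a hint from the data only. For dura against diaphragm no paired analysis was possible because no label ties a diaphragm number to a dural one.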
